A study of Mus musculus with 8 samples.

Results

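The genes of cell-to-cell junctions described here were 10 genes of the pancreatic epithelium, fixed by name: the connexins Gjb1 and Gjb2, the claudins Cldn1, Cldn3, Cldn7 and Cldn10, the tight junction genes Ocln and Tjp1, and the adhesion genes Cdh1 and Epcam. All 10 had a feature that names no other gene, among 18820 genes tested on 8 whole-transcript arrays of mouse pancreas. The rule names the genes and uses no measured value, though it was set with earlier results of these data known, and where a gene had several features the brightest was used. The arrays held RNA of 4 Sel1L knockout and 4 wild type samples of pancreas, from mice of the C57BL/6J background. Mice of both groups were homozygous for a Sel1l gene with floxed exon 6 and received tamoxifen on 3 days at 8 to 20 weeks of age. Only the knockout group also carried a Cre recombinase fused to the estrogen receptor, under an actin promoter that is not limited to pancreas. The group labelled wild type thus differs from the knockout in Cre as well as in Sel1L, and what active Cre or the loss of Sel1L elsewhere in the body does cannot be told apart from loss within pancreas. The labels do not state that replicates came from different animals, and p-values then describe only how these samples scatter, which could be technical.

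Sel1L is the partner of the Hrd1 ubiquitin ligase that removes misfolded proteins from the endoplasmic reticulum. Exocrine acinar cells are joined to each other by gap junctions, in which connexins form channels that pass ions and small molecules from cell to cell, and by tight junctions, in which claudins and occludin seal the paracellular path between the lumen and the tissue. Adherens junctions, built on E-cadherin, hold neighbouring cells together. Connexins and claudins are membrane proteins that are themselves made in the endoplasmic reticulum. The arrays read RNA, not protein or its place in the cell.

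In Sel1L knockout pancreas 6 of the 10 genes were higher and 2 were lower than in wild type. Gjb2, Epcam, Cldn3, Cldn7, Ocln and Tjp1 rose, Cldn10 and Gjb1 fell, and Cdh1 and Cldn1 did not pass the test. Calls are a Benjamini-Hochberg adjusted p under 0.05 over all genes in limma, and differences are knockout minus wild type on the log2 scale of the deposited values. Of all genes tested, 28.7% were called, 16.1% as higher and 12.6% as lower. Knockout and wild type values were fully separate in 8 of the 10 genes, the same 8 that were called, against 32.2% of all genes tested. These shares include dim genes, while 9 of the 10 lay above the median level of all genes. A fit of only the genes above that level called 4176, a larger share than over all genes. Of these 3013 were higher and 1163 lower, with 6 and 2 among the 9. The median difference was 0.32 over the 10 genes and -0.037 over all genes. No difference among the 10 reached 2-fold, and the largest was 1.64-fold, in Gjb2. In tissue RNA, fewer cells of a type and less RNA per cell cannot be told apart, and most of these genes are used by duct and islet epithelium as well as by acinar cells.

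**Figure D1:**
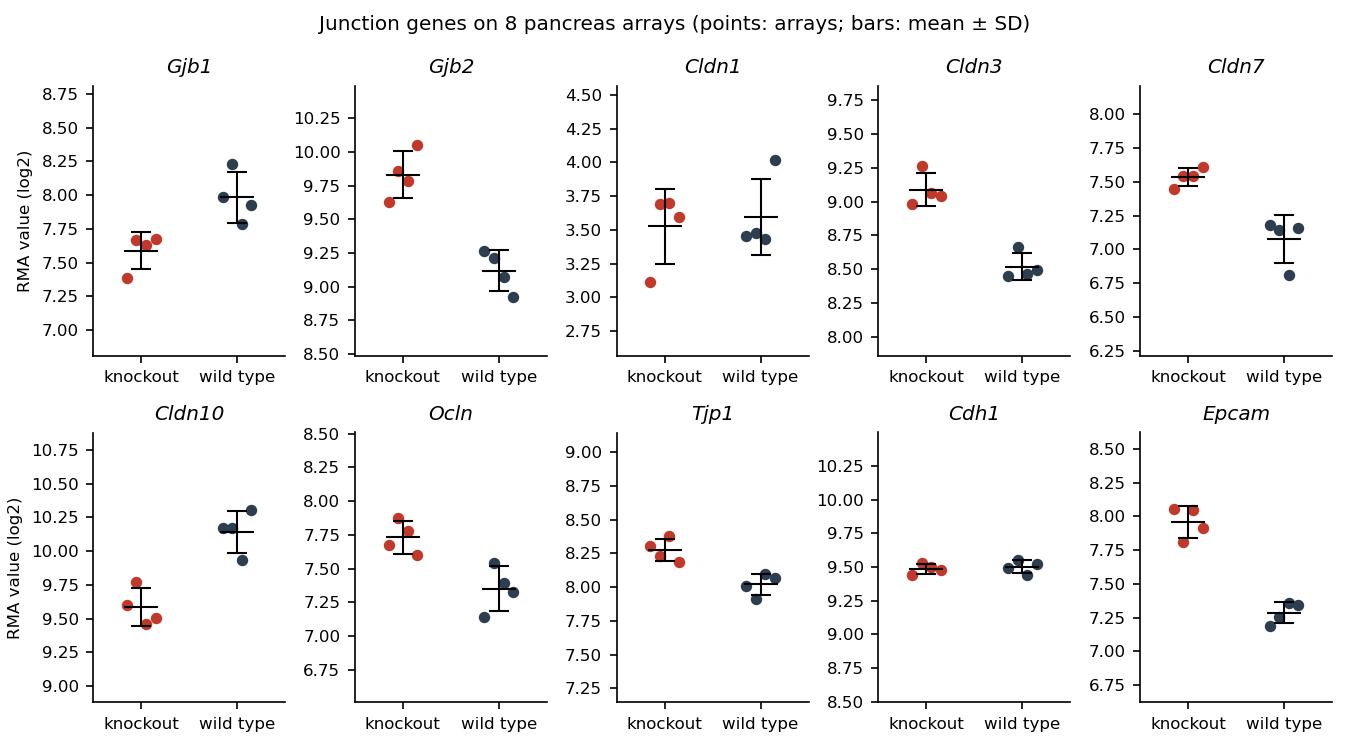
Deposited values (log2, vertical axis) of the 10 genes on the 4 Sel1L knockout arrays (red) and the 4 wild type arrays (dark blue), with the mean and SD of each group as bars; every panel spans the same 2 log2 units. The groups are apart for 8 genes, with Gjb1 and Cldn10 lower in knockout, while the groups overlap for Cdh1 and Cldn1.

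The targeted gene followed the labels. Sel1l lay between 11.45 and 11.70 on the knockout arrays and between 12.37 and 12.39 on the wild type arrays, a difference of -0.76 (SE 0.0788, limma adjusted p = 0.000196; exact two-sided permutation p = 0.0286, the lowest value possible with 4 arrays a group). Where its probes lie relative to exon 6 was not analysed here. Wild type replicate 2 stood apart from the other wild type arrays, with a mean level of the leukocyte markers of 5.71, against 7.35 to 8.11, and of the stellate cell and fibroblast markers of 7.26, against 8.38 to 8.84. Without that array the calls of Gjb1 (adjusted p = 0.0529) and Tjp1 (0.0849) were lost and the other 6 calls held.

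The 2 connexins went in opposite directions. Gjb1 encodes Cx32, a main connexin of acinar gap junctions. Its values were 7.38, 7.67, 7.63 and 7.67 in Sel1L knockout replicates 1 to 4, and 7.99, 8.23, 7.78 and 7.93 in wild type replicates 1 to 4. Every knockout value lay below every wild type value, with knockout replicate 1 the lowest of the 8. Gjb1 averaged 7.59 ± 0.137 in knockout and 7.98 ± 0.187 in wild type (SD, n = 4 each), a difference of -0.39 (SE 0.112, 1.31-fold lower, limma adjusted p = 0.0271). Leaving out wild type replicate 1 (adjusted p = 0.054) or 2 (0.0529), or knockout replicate 1 (0.0686) or 3 (0.0564), ended the call, and the difference lay between -0.46 and -0.31 whichever array was left out.

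Gjb2 encodes Cx26, which acinar cells also make and which can share gap junction plaques with Cx32. It had values of 9.63, 9.86, 9.78 and 10.05 in Sel1L knockout replicates 1 to 4, against 9.26, 9.21, 9.07 and 8.92 in wild type replicates 1 to 4. All knockout values exceeded all wild type values, with the lowest knockout array at 9.63 and the highest wild type array at 9.26. Means were 9.83 ± 0.176 in knockout and 9.12 ± 0.153 in wild type (SD, n = 4 each), a difference of 0.71 (SE 0.112, adjusted p = 0.0018). Only 5.80% of all genes had a larger difference in either direction. The dimmer feature of Gjb2 gave 0.62 (SE 0.176, adjusted p = 0.0276), with overlapping groups: 7.08 to 7.64 in knockout and 6.29 to 7.08 in wild type.

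Because both connexins were read on the same arrays, the within-array difference Gjb2 minus Gjb1 is not moved by a constant shift of an array. Scaling that depends on level, such as quantile normalization or cyclic loess, can move this difference. Set to a mean of 0 in wild type, it was 1.11, 1.06, 1.01 and 1.24 in the knockout replicates and 0.14, -0.15, 0.15 and -0.14 in the wild type replicates. The knockout mean was 1.10 ± 0.0987 (SD, n = 4), against an SD of 0.169 in wild type (n = 4). This and the other 2 pairs of genes set side by side in this way were chosen after their values had been seen, so the differences are a description, with no test.

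Transcription factors of the basic helix-loop-helix class bind the E-box, CANNTG. The class includes Bhlha15 (Mist1), on which exocrine expression of Gjb1 is known to depend in mice. Bhlha15, named here after its value was seen, was itself lower, at 11.08 ± 0.0391 in knockout against 11.84 ± 0.131 in wild type (SD, n = 4 each; difference -0.76, SE 0.084, limma adjusted p = 0.000274). Whether Bhlha15 has a part in the Gjb1 difference was not tested. Promoter windows of the connexins are given as a description, from RefSeq on GRCm38.p6. Each runs from 250 bases before to 50 after an annotated start, with every CANNTG in capitals. RefSeq lists several starts for Gjb1, of which the most upstream, at chrX:101376126-101376425, and the most downstream, at chrX:101383482-101383781, are given, both on the plus strand. The window of Gjb2 is chr14:57104653-57104952 on the minus strand.
Gjb1, upstream start: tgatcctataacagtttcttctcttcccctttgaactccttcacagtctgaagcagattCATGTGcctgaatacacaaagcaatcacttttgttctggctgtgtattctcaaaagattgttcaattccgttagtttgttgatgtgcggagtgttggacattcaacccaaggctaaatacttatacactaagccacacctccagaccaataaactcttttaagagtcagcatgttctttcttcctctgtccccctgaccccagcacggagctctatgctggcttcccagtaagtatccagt
Gjb1, downstream start: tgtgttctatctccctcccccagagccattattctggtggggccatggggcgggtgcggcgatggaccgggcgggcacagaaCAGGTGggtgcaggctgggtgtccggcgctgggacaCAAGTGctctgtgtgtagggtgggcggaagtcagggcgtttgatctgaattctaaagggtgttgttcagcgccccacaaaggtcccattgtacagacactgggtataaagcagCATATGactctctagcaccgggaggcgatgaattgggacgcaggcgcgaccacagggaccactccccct
Gjb2: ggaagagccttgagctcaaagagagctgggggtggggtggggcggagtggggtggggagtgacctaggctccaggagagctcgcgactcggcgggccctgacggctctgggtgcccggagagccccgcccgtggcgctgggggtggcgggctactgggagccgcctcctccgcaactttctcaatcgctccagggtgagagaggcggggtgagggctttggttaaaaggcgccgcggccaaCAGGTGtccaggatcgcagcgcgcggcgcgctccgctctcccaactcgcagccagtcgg

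The 4 Gjb1 windows held 1, 1, 6 and 3 E-boxes in order from upstream to downstream, of which the first and last are printed, and the Gjb2 window held 1. The 6 in the Gjb1 window at chrX:101381868-101382167 were the most in any of the 15 windows. The downstream Gjb1 window held the only CATATG among the 15 windows of the 9 junction genes in the RefSeq table. CATATG, which reads the same on both strands and is a form of CANNTG, occurs in 3.91% of the 32851 windows of that table, and CANNTG in 72.3%. Of the 15 windows 13 held a CANNTG, so its presence does not set Gjb1 apart from Gjb2. The arrays do not tell which Gjb1 start was used, and no binding was measured.

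Among the claudins, Cldn3 and Cldn7 rose and Cldn10 fell. Cldn3 encodes a claudin that seals tight junctions in many epithelia. Its values were 8.99, 9.27, 9.06 and 9.04 in Sel1L knockout replicates 1 to 4, against 8.45, 8.66, 8.47 and 8.50 in wild type replicates 1 to 4. The groups did not overlap, and replicate 2 was the highest in each. Means were 9.09 ± 0.122 in knockout and 8.52 ± 0.0982 in wild type (SD, n = 4 each), a difference of 0.57 (SE 0.0893, 1.48-fold higher, limma adjusted p = 0.00173).

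Cldn7 encodes a claudin found along the basolateral membrane as well as at tight junctions, and a known binding partner of the Epcam protein. It had 7.45, 7.55, 7.54 and 7.61 in knockout replicates 1 to 4, and 7.18, 7.15, 6.81 and 7.16 in wild type replicates 1 to 4. Wild type replicate 3 lay well below the other wild type arrays, and all knockout arrays lay above the highest wild type one. The difference was 0.46 (SE 0.099, limma adjusted p = 0.008), and 0.37 (adjusted p = 0.00996) without that array.

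Cldn10 encodes claudins of several isoforms, some of which form ion-selective pores instead of seals. Its values were 9.60, 9.78, 9.46 and 9.50 in knockout replicates 1 to 4, against 10.17, 10.17, 9.93 and 10.30 in wild type replicates 1 to 4. All knockout values were below all wild type values. Cldn10 averaged 9.59 ± 0.141 in knockout and 10.14 ± 0.154 in wild type (SD, n = 4 each), a difference of -0.56 (SE 0.105, 1.47-fold lower, limma adjusted p = 0.00431). Its other feature gave -0.57 (SE 0.102, adjusted p = 0.00365), again with no overlap. Which isoforms each feature reads was not analysed here. The within-array difference Cldn3 minus Cldn10, set to a mean of 0 in wild type, lay between 1.01 and 1.23 in knockout and between -0.18 and 0.16 in wild type.

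Cldn1, another sealing claudin, was dim, with values between 3.12 and 3.70 in knockout and between 3.43 and 4.02 in wild type, below the median gene of every array. Its difference was -0.069 with a 95% interval from -0.45 to 0.31 (limma adjusted p = 0.774), so a change within those bounds is not excluded.

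The windows of the claudins that moved apart are given with every CANNTG in capitals, from RefSeq on GRCm38.p6 and all on the plus strand. They lie at chr5:134985964-134986263 for Cldn3, and at chr14:118787621-118787920 and chr14:118854700-118854999 for the 2 starts of Cldn10.
Cldn3: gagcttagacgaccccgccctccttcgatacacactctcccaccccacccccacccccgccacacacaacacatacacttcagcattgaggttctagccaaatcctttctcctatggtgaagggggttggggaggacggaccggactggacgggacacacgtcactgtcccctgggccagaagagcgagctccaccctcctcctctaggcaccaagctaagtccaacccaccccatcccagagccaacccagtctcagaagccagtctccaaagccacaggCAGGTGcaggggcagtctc
Cldn10, upstream start: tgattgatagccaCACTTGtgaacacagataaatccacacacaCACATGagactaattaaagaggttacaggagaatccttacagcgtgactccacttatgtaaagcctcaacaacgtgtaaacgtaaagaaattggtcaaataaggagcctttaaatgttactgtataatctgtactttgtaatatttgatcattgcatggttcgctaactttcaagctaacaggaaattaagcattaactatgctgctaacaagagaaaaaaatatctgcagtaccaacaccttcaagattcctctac
Cldn10, downstream start: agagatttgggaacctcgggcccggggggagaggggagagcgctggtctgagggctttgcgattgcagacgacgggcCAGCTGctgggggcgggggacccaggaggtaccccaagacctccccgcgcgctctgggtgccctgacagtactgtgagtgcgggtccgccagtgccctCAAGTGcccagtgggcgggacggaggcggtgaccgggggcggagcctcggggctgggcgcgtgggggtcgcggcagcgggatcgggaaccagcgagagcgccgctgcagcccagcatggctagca

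The Cldn10 windows differ in base composition: G and C make up 36.0% of the upstream window and 72.0% of the downstream one, against 60.7% in Cldn3 and a median of 52.7% over all windows. Each Cldn10 window held 2 E-boxes, and that of Cldn3 held 1.

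The other tight junction genes rose by less. Ocln encodes occludin, a membrane protein of the tight junction strand. It lay between 7.60 and 7.88 in knockout and between 7.14 and 7.54 in wild type, without overlap, a difference of 0.38 (SE 0.104, limma adjusted p = 0.0227). The call was lost without knockout replicate 2 (adjusted p = 0.0656) or 3 (0.0621). Tjp1 encodes ZO-1, the scaffold that ties claudins and occludin to actin and is also found at gap junctions. It lay between 8.19 and 8.38 in knockout and between 7.91 and 8.10 in wild type, a difference of 0.25 (SE 0.079, limma adjusted p = 0.0382), and 43.2% of all genes had a larger difference. The Tjp1 call was lost in 6 of the 8 fits that left out an array, held without wild type replicate 3 (0.0416) or knockout replicate 4 (0.0492), and had its highest adjusted p, 0.108, without knockout replicate 3.

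The 2 adhesion genes differed from each other. Epcam encodes an epithelial adhesion molecule that binds the Cldn7 protein and is made in many epithelia. Its values were 8.05, 7.81, 8.05 and 7.92 in Sel1L knockout replicates 1 to 4, against 7.19, 7.26, 7.36 and 7.34 in wild type replicates 1 to 4. No values overlapped, and the lowest knockout array was 7.81 against 7.36 for the highest wild type array. Means were 7.96 ± 0.117 in knockout and 7.29 ± 0.0786 in wild type (SD, n = 4 each), a difference of 0.67 (SE 0.0852, 1.59-fold higher, limma adjusted p = 0.000586).

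Cdh1 encodes E-cadherin, the adhesion receptor of the epithelial adherens junction. It was 9.44, 9.53, 9.50 and 9.48 in knockout replicates 1 to 4, and 9.49, 9.55, 9.44 and 9.52 in wild type replicates 1 to 4. The groups overlapped throughout, with means of 9.49 ± 0.0369 in knockout and 9.50 ± 0.0492 in wild type (SD, n = 4 each). The difference of -0.013 had a 95% interval from -0.17 to 0.14 (adjusted p = 0.894), the narrowest interval of the 10 genes. The within-array difference Epcam minus Cdh1 lay between 0.49 and 0.82 in knockout and between -0.09 and 0.14 in wild type, where its mean was set to 0.

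The Epcam window, at chr17:87635729-87636028 on the plus strand of GRCm38.p6, held 3 E-boxes, in capitals here as above.
Epcam: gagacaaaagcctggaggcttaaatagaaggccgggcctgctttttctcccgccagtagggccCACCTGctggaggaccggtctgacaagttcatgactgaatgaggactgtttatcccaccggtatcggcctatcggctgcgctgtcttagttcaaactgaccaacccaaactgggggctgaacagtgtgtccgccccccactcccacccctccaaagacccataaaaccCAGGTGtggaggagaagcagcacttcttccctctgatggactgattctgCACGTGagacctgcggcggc

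Scaling mattered for the smaller rises. Gjb2, Epcam and Cldn3 stayed higher and Gjb1 and Cldn10 lower, each past the threshold, when the deposited values were quantile normalized, centred on the array medians or adjusted by cyclic loess. Cldn7 was lost after quantile normalization (difference 0.30, adjusted p = 0.0692) and cyclic loess (0.32, 0.0502). Ocln and Tjp1 were lost after all 3, with differences of 0.23 to 0.31 for Ocln and 0.12 to 0.18 for Tjp1. The 3 settings called 22.5%, 33.1% and 22.0% of all genes in that order. As deposited, 56.0% of all calls were higher genes; the share was 42.9% with quantile normalization, 36.3% with median centring and 48.1% with cyclic loess. The median over all genes was -0.11 with median centring, against -0.037 as deposited.

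**Figure D2:**
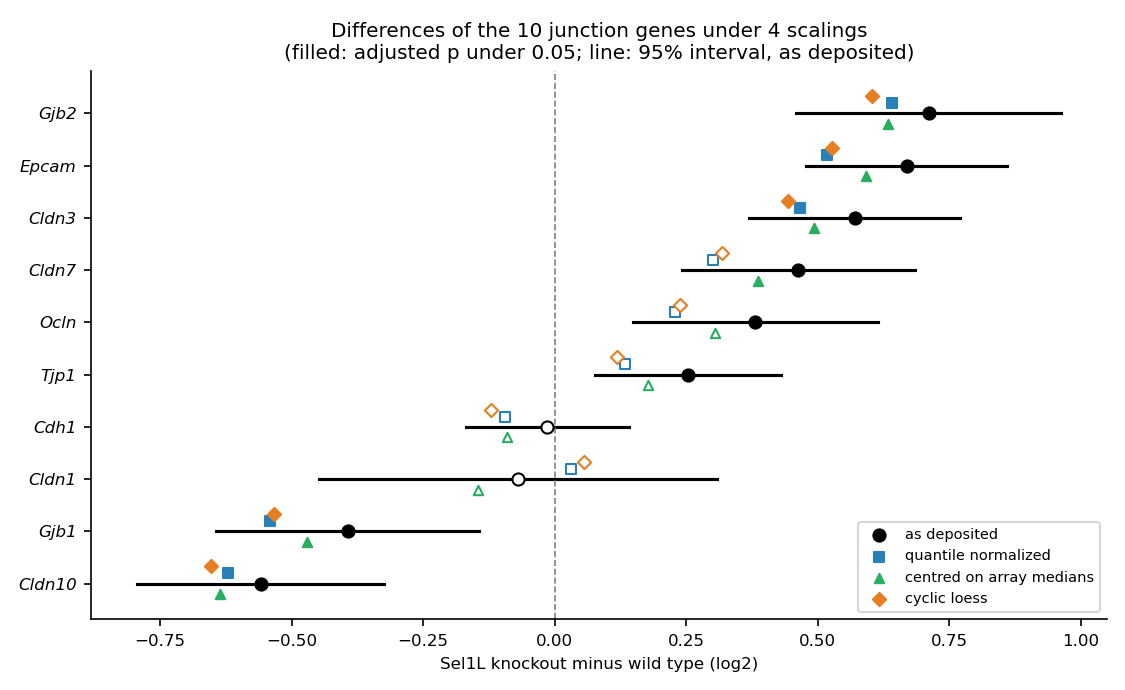
Difference of each of the 10 genes, Sel1L knockout minus wild type in log2 units (horizontal axis), as deposited with its 95% interval (black) and after 3 other scalings (colours); filled symbols passed the threshold. Gjb2, Epcam, Cldn3, Gjb1 and Cldn10 are filled under all 4, while Cldn7, Ocln and Tjp1 have open symbols under some.

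Of 98 other junction genes listed, 91 were measured, of which 14 rose, 16 fell and 61 did not pass the test, with a median difference of -0.038, against -0.037 over all genes. Over all genes tested, 16.1% were called higher and 12.6% lower, and the count of each junction list below stands beside those shares. The groups did not overlap in 30 of the 91, near the 32.2% of all genes. After quantile normalization 8 rose and 20 fell, and after cyclic loess 8 rose and 19 fell. Of 17 other connexins and pannexins, 1 rose and 4 fell, though only 1 fell without wild type replicate 2 or knockout replicate 2 or 3. The 1 that rose was Gja1, which encodes Cx43, at 7.02 to 7.29 in knockout against 6.16 to 7.02 in wild type, so the groups all but touched. It differed by 0.64 (SE 0.178, adjusted p = 0.0246), and missed the threshold after quantile normalization (0.0718) and cyclic loess (0.0643), and without wild type replicate 1 (0.0651) or knockout replicate 1 (0.0599) or 3 (0.0683). Panx2, a pannexin gene, fell by 0.63 (SE 0.11, adjusted p = 0.00303). Gja3 and Gjb6, whose means lay below the median gene of every array, differed by -0.34 and -0.42 (adjusted p = 0.0283 and 0.0296); Gjb6 missed the threshold after quantile normalization (0.119) and cyclic loess (0.157), with the replicate block (0.0628) and without wild type replicate 2 or knockout replicate 2, 3 or 4 (0.0512 to 0.0808). Gja3 missed it without wild type replicate 2 or 4 or knockout replicate 1, 2 or 3 (0.0625 to 0.0784).

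Of 19 other claudins 2 rose and 3 fell, but only 1 rose under each of the 3 other scalings, with array weights or the replicate block, and without wild type replicate 1, 2 or 3 or knockout replicate 1 or 3. Cldn4, which seals, rose by 0.55 (SE 0.126, adjusted p = 0.011), at 5.95 to 6.38 in knockout against 5.37 to 5.72 in wild type. Cldn8 fell by 0.43 (SE 0.115, adjusted p = 0.0218), Cldn9 by 0.62 (SE 0.125, adjusted p = 0.0063) and the dim Cldn14 by 0.50 (SE 0.0759, adjusted p = 0.00148). Cldn8 ran from 8.12 to 8.51 in knockout and from 8.50 to 8.91 in wild type, so its groups overlapped slightly, and its call was lost without knockout replicate 2 (0.0527) or 4 (0.059).

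Other tight junction and polarity genes included the largest change of all the junction genes examined. Amotl1, a member of the angiomotin family of tight junction scaffolds, had 8.91, 8.78, 8.90 and 8.85 in knockout replicates 1 to 4, against 7.55, 7.51, 7.63 and 7.64 in wild type replicates 1 to 4. The 2 groups were more than 1 log2 unit apart at their closest, and the difference was 1.28 (SE 0.0728, 2.43-fold higher, limma adjusted p = 8.22e-06). In that list 7 of 25 rose and 2 fell, against 4 and 4 after quantile normalization or cyclic loess. Prkcz, an atypical protein kinase C of apical polarity, rose by 0.62 (SE 0.0937), though its dimmer feature gave 0.043 (adjusted p = 0.817). Pard3, the polarity scaffold that binds it, rose by 0.39 (SE 0.0691), and Magi3, a scaffold of the tight junction, fell by 0.48 (SE 0.0836).

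Adherens junction and desmosome genes went both ways. Of 16 adherens junction genes 3 rose and 3 fell. Nectin2 rose by 0.65 (SE 0.118) while Nectin1 fell by 0.73 (SE 0.12), both of them genes of the nectin adhesion receptors. Ctnnd1, the gene of p120 catenin, which binds the tail of E-cadherin, rose by 0.41 (SE 0.0963). Ssx2ip, which encodes an afadin-binding protein also found at centrosomes, fell by 0.86 (SE 0.087). Of 10 desmosome genes 1 rose, the plakophilin gene Pkp2 (0.73, SE 0.112), and 3 fell, the dim Pkp1, Pkp4 and the dim Evpl, by 0.50, 0.29 and 0.24. None of those 3 kept its call without knockout replicate 3 (adjusted p = 0.0654, 0.0511 and 0.100). Pkp1 also lost it without wild type replicate 1 or knockout replicate 2 or 4, and Pkp4 without knockout replicate 4. Evpl lost it after cyclic loess (0.0586), with trend and robust variance (0.0985), with the replicate block (0.0852) and in 6 of the 8 fits that left out an array. Of 4 measured genes around Epcam, Spint1, a membrane protease inhibitor, fell by 0.39 (SE 0.0982; adjusted p = 0.0502 without knockout replicate 3), and 3 did not pass the test. The highest adjusted p among the called genes named in these lists was 0.0393, in Evpl.

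**Figure D3:**
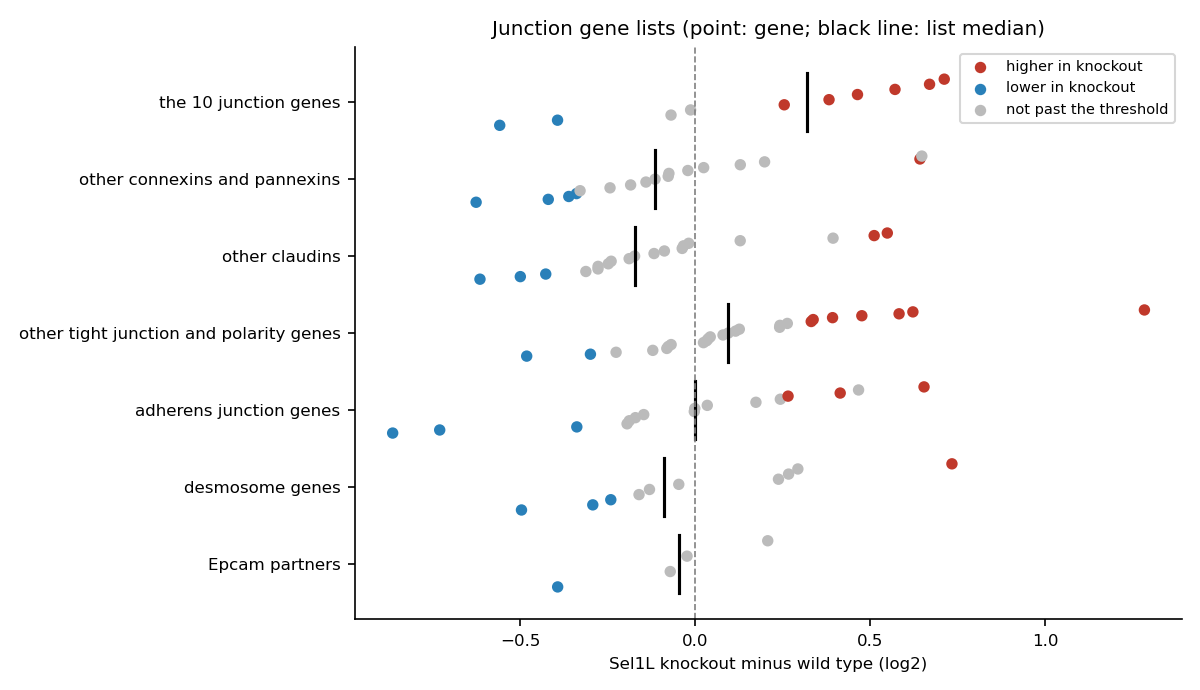
Difference of each gene, Sel1L knockout minus wild type in log2 units (horizontal axis), in the 10 genes (top row) and 6 lists of other junction genes; red points rose, blue points fell and grey points did not pass the test, and a black line marks each list's median. The median was 0.32 in the top row and between -0.17 and 0.09 in the other lists, with Amotl1 at 1.28 to the far right.

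Among the cell type marker lists, those of acinar and endothelial cells held the most calls. Of all genes tested, 28.7% were called, 16.1% as higher and 12.6% as lower, and the duct and islet counts given below lie near that share. Of 11 acinar markers 7 fell and 0 rose, and their mean level was 12.77 to 12.86 in knockout against 13.03 to 13.17 in wild type; the brightest, Ctrb1 and Cpa1, differed by -0.13 and -0.16 without overlap and did not pass the test. They did pass after median centring (adjusted p = 0.0434 for Ctrb1 and 0.03 for Cpa1) and with trend and robust variance (0.0134 and 0.00684), and Cpa1 also among genes above the median level (0.0436). Of 10 endothelial markers 7 rose and 0 fell, at a mean of 7.63 to 7.88 in knockout against 7.33 to 7.46 in wild type, among them Emcn (0.52, adjusted p = 0.0236). Emcn missed the threshold after quantile normalization (0.0623) and cyclic loess (0.0836) and without wild type replicate 1 or 4 or knockout replicate 3 or 4 (0.0511 to 0.0664). Endothelial cells also make Tjp1 and Gja1, which rose, and Cldn5, Gja4 and Gja5, which were dim. Those dim genes differed by -0.019, 0.13 and 0.024 and did not pass the test. The genes of this comparison were picked from the junction lists by no fixed rule and are not a full set. Jam2, of the tight junction list, rose by 0.48 (limma adjusted p = 0.0163) without overlap. Of 10 duct markers 2 rose, Krt18 and Krt8, and 1 fell, Muc1, and their mean overlapped between groups, at 8.35 to 8.46 in knockout and 8.31 to 8.52 in wild type. That mean includes Muc1, whose difference of -2.39 was the largest in the list. The median difference of the duct list was 0.25, against -0.037 over all genes. Averaged over the 8 arrays, no acinar or endothelial marker and 2 of the 10 duct markers lay below the median gene of the arrays. Krt18 differed by 0.86 and Krt8 by 0.25. In tissue RNA, the cells in which Krt18, Krt8 and Muc1 changed cannot be told, so these calls need not come from duct cells. The Krt8 call (adjusted p = 0.0473) was lost under all 3 other scalings (0.0924 to 0.246), with array weights (0.0585), with the replicate block (0.0734) and in 7 of the 8 fits that left out an array. Muc1, a mucin, ran from 8.08 to 9.47 in knockout against 11.22 to 11.37 in wild type. Of 10 islet markers 1 rose and 1 fell, and their mean overlapped as well, at 7.16 to 8.49 in knockout and 7.16 to 8.36 in wild type. Pcsk1, a prohormone convertase, fell by 1.08 (SE 0.225, adjusted p = 0.00709) without overlap, and Ppy, pancreatic polypeptide, rose by 1.33 (SE 0.444, adjusted p = 0.0487) with overlapping groups. The brightest markers of the other lists, Tff2 (duct), Plvap (endothelium), Gcg and Iapp (islet), Dcn and Vim (stroma), Lyz2 and Cd74 (leukocytes) and Upk3b and Lrrn4 (mesothelium), did not pass the test. Of these, Tff2 passed after median centring (0.0217), with trend and robust variance (0.00697) and when dim genes were left out (0.0258), Plvap without wild type replicate 1 (0.0263), Iapp without knockout replicate 1 (0.0258) and Lyz2 without wild type replicate 2 (0.039). The part of these shifts in the junction gene differences was not tested.

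**Figure D4:**
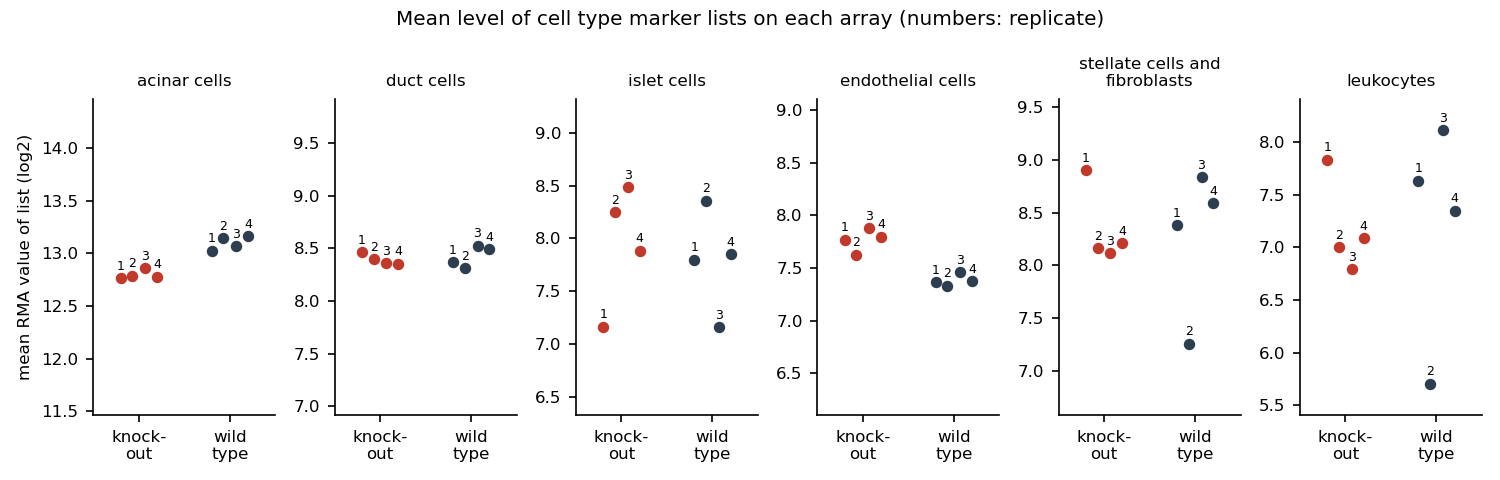
Mean deposited value (log2, vertical axis) of 6 cell type marker lists on each Sel1L knockout array (red) and wild type array (dark blue), with replicate numbers beside the points and the same 3 log2 units in every panel. Acinar markers lie lower and endothelial markers higher in knockout without overlap, while wild type replicate 2 lies lowest for stellate cell and leukocyte markers.

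The genes whose profile over the 8 arrays lay closest to each called gene were found by the root mean square distance between profiles centred on their own means. For Epcam these were Stt3b, the gene of a catalytic subunit of the oligosaccharyltransferase, at a distance of 0.0482 log2 units, and Pdgfd (0.0484). For Gjb2 they were Cox7a2l (0.0552) and Bola1 (0.0601), for Cldn3 they were Maf1 (0.0527) and Sin3a (0.054), and for Cldn10 they were Fam149a (0.0661) and Crx (0.0682). Both neighbours of Gjb1, Zdhhc11 and B430212C06Rik, were dim genes with means of 3.27 and below. For Cldn7, Ocln and Tjp1 the nearest genes were Mettl15, Usp48 and Acap2. With 8 arrays in 2 groups, such likeness mostly follows the difference between groups, and many genes share it.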

How the data were processed

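RNA of 4 Sel1L knockout and 4 wild type samples of mouse pancreas was measured on whole-transcript arrays. Per the submitters' processing notes the authors used RMA, and the deposited values, from 0.964 to 14.4, are taken as its log2 expression values, since no header names the scale. Neither the RMA version nor which arrays it took in together is stated there. Their precision is limited by the number of arrays. Of 35556 features 21218 had 1 gene symbol in the platform annotation, and the brightest per gene gave 18820 genes; the 1881 features with more than 1 symbol and the 12457 without one were not used, and no filter on dim genes was applied. limma 3.58.1 in R 4.3.3 (lmFit, eBayes) tested knockout minus wild type across all genes, with Benjamini-Hochberg adjustment. Other settings were quantile normalization, array median centring, cyclic loess (all over every deposited feature), only genes above the median level, the mean of all features, every feature by itself, trend and robust variance, array weights, a block for the replicate number, and each array left out in turn. On simulated data with 200 of 18820 genes changed between 4 and 4 arrays, 32% of genes changed by 0.5 and 86% of those changed by 1 (log2) were recovered, with 5 false calls among 123. Real genes are not independent as those were. In the real data 5406 genes were called, and the adjustment depends on the share of genes that differ. The shares recovered in the simulation therefore need not hold for the real fit.

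The 10 genes, the lists and the tests were chosen with earlier results of these data known. Named were all 10 genes, Sel1l, up to 4 called genes with the smallest p per junction list, the 2 brightest of each marker list, and the 2 nearest profiles of each called gene. Bhlha15, Krt18, Muc1, Pcsk1 and Ppy were added after their values were seen. Cldn5, Gja4, Gja5 and Jam2 were also named outside that rule. Of 193 list entries 176 had a feature, matched by symbol or, for older names, through RefSeq; the others were not analysed here. Of the 10 genes, 9 had promoter windows in the RefSeq table used, 15 windows in all. Marker lists of mesothelium (0 of 6 called) and of gut and liver (2 of 9 lower, Alb among them, whose call was lost with the replicate block and without 3 of the arrays, while Ttr did not pass) were also checked. Stellate cell (0 of 10) and leukocyte lists (0 of 9) had no call. Over all genes 28.7% were called. Figures were drawn with matplotlib 3.10.9.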

Additional observations from a re-analysis of the deposited data

Results flagged for a closer look

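In groups of 4 arrays, a highest or lowest array was picked out when its gap to the nearest of the others exceeded Dixon's 95% critical share of the group's range. Chance alone does this in about 1 in 20 groups, and 98 groups (49 named genes, each in knockout and wild type) were examined, of which 11 were picked out. Among the junction genes these were Gjb1 in Sel1L knockout replicate 1, at 7.38 against 7.63 to 7.67 in the other knockout arrays, Cldn7 in wild type replicate 3, at 6.81 against 7.15 to 7.18, and the dim Cldn1 in wild type replicate 4, at 4.02 against 3.43 to 3.48. Sel1l was lowest in knockout replicate 4, at 11.45 against 11.66 to 11.70.

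Ssx2ip was low in wild type replicate 4, at 8.16 against 8.30 to 8.31, and Nectin2 in knockout replicate 2, at 7.19 against 7.27 to 7.29. Pkp1 was high in knockout replicate 1 (4.08 against 3.70 to 3.76) and Krt8 in knockout replicate 4 (11.65 against 11.49 to 11.51). The stromal gene Dcn was high in knockout replicate 1 (11.94 against 11.44 to 11.50) and low in wild type replicate 2 (10.65 against 11.42 to 11.50), and the mesothelial marker Upk3b was low in wild type replicate 2 (5.51 against 6.33 to 6.44).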

How the results depend on the processing

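Of the 10 genes, 6 were called higher and 2 lower with trend and robust variance, array weights, the mean of all features or every feature tested by itself; only 9 were left among genes above the median level, with the same counts. Quantile normalization and cyclic loess each left 3 higher and 2 lower, and moved the genes called higher over all genes to 1815 and 1987 and the other junction genes called higher to 8 and 8. Array median centring left 4 higher and 2 lower, with 3969 genes called lower over all genes. Among genes above the median level, where fewer were tested, 3013 were higher and 1163 lower, against 3027 and 2379 over all genes. The number called lower thus changed with level far more than the number called higher. With the replicate number as a block 5 were higher and 2 lower, and Tjp1 missed the threshold (limma adjusted p = 0.0668). Deviations of same-numbered arrays from their group means had correlations of 0.22, 0.15, -0.27 and -0.02. The labels do not state a pairing, and these correlations cannot tell whether there was one.

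Leaving out each array in turn gave 1 to 2 of the 10 genes lower, 7 to 15 other junction genes lower (7 without knockout replicate 3, 9 without knockout replicate 2 or 4, 10 without wild type replicate 2) and 1517 to 2371 genes lower over all genes (1517 without knockout replicate 3). With fewer arrays the test is also weaker. The values that changed sign were not called as deposited: Cldn1 (0.031 after quantile normalization, 0.055 after cyclic loess, -0.13 to 0.071 leaving out arrays), Cdh1 (-0.034 to 0.0039), and the marker genes Vim (-0.53 to 0.19), Lyz2 (-1.27 to 0.17, called only without wild type replicate 2, at -1.27 with adjusted p = 0.039) and Lrrn4 (-0.19 to 0.50). Elsewhere the cause was not tested.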
